A study of Drosophila melanogaster with 4 samples.

Results

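The genes of the piRNA pathway were examined in fly ovaries after a pulldown of RNA with an antibody against pseudouridine. They were chosen from a list of 35 FlyBase symbols for factors of piRNA biogenesis, nuage and silencing. By symbol or synonym, 34 of the 35 were found among the 17023 genes counted, and vas was left out because it could not be matched. Of these 34 genes, 33 passed the filter on low counts and were tested among 7085 genes. The exception was fs(1)Yb, the gene of a Tudor protein of follicle cell Yb bodies, with 0 and 3 counts in pulldowns 1 and 3, against 3 and 91 in inputs 1 and 3.

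Ovaries of Drosophila melanogaster of the genotype labelled WT gave 2 pulldown libraries and 2 input libraries, numbered 1 and 3 in each group. RNA of the pulldown libraries was recovered from a detergent homogenate with a mouse anti-pseudouridine antibody (MBL Life Sciences). RNA of the input libraries came from a part of the homogenate that had no antibody added. Both kinds were selected for poly(A) tails, and no treatment is named. The number of pooled ovaries and separate dissections are not stated for these libraries, so the spread between replicates may be technical. For WT ovaries in general, the study's methods name females a few days old, kept on rich food overnight, of the genotype UAS-Dcr2;nosGAL4, which express Dicer-2 in the germline from a transgene. Whether these libraries came from that stock and age is not stated. Dcr-2 was at 64.0 CPM in pulldown 1 and 121 CPM in input 1, and at 872 CPM in pulldown 3 and 1578 CPM in input 3, so the replicates stood apart in this gene. Its part in any value below was not tested. A mock pulldown with IgG is described in the methods and was not analysed here.

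The piRNA pathway silences transposons in the germline through small RNAs bound by PIWI proteins. Long precursors are transcribed from clusters, exported, and cut in the nuage, a perinuclear granule, where paired cleavage by Aubergine and Argonaute 3 (ping-pong) amplifies them, or at mitochondria by Zucchini. Piwi carries its piRNAs into the nucleus and directs silencing of transcription. Most members act in germline cells, and some, such as piwi, also in follicle cells. Pseudouridine is an isomer of uridine made by pseudouridine synthases, mostly in rRNA, tRNA and snRNA and at some sites in mRNA.

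Levels are given as CPM, the count of a gene scaled to a library total of 1000000. The totals were 984979 counts in pulldown 1 and 6338436 in pulldown 3, against 4245717 in input 1 and 12684875 in input 3. A level of 3 counts was taken as the floor. It corresponded to 3.05 CPM in pulldown 1 and 0.473 CPM in pulldown 3, and to 0.707 CPM in input 1 and 0.237 CPM in input 3. Where a pulldown had 0 counts, a fold difference at the floor is a ratio of CPM on library totals, without further scaling. Pulldown 1 stood apart, with 33.1% of its counts on 10 genes, against 13.5% in input 1, and 6.70% in pulldown 3 against 6.34% in input 3. Markers of the ovary were present: the summed level of 6 germline markers was 1972 and 2692 CPM in pulldowns 1 and 3 and 3777 and 3843 CPM in inputs 1 and 3, with 5 of 6 detected in pulldown 1 and all 6 elsewhere. The summed level of 6 follicle cell markers was 70492 and 13688 CPM in pulldowns 1 and 3, against 29730 and 7345 CPM in inputs 1 and 3. The germline sum was thus lower in the pulldown of each pair. So was that of 4 muscle sheath markers, with 285 and 451 CPM in pulldowns 1 and 3, against 337 and 576 CPM in inputs 1 and 3. On total counts, the median log2 ratio of pulldown to input over all tested genes was -0.70 in pair 1 and -0.12 in pair 3. The follicle cell sum rested mostly on 1 gene, Vm26Aa of the vitelline membrane, with 65530 and 9649 CPM in pulldowns 1 and 3, against 24352 and 4312 CPM in inputs 1 and 3. Without it the sum of the other 5 was 4962 and 4039 CPM in pulldowns 1 and 3, against 5378 and 3033 CPM in inputs 1 and 3, so it was lower in the pulldown of pair 1 and higher in that of pair 3. The part of these markers in the results on the piRNA genes was not tested. Markers of testis, fat body and haemocytes together summed to at most 9.14 CPM in any library.

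Sequence features were read from the RefSeq annotation of dm6, with the longest coding sequence of each gene. The study's interest lay in runs of CAG codons, which encode glutamine. None of the 33 tested members held 5 or more consecutive CAG codons, against 4.95% of the 6814 tested genes with a coding sequence. The longest run in a member was 3. The study instead scored sequences for a motif of 5 CAGs, which is another measure, so its shares cannot be set beside these. Runs of at least 5 glutamine codons occurred in 2 members, tud and wde, or 6.06% against 9.60% of those genes. The motif GTTCNANNC is the sequence recognised by the pseudouridine synthases Pus4 in yeast and TRUB1 in human cells. Searched on the transcript strand with overlapping matches allowed, it was found in 19 of 33 members (57.6%) against 38.4% of the tested genes, or 0.288 against 0.206 matches per kb of mRNA. The mRNAs of the members were longer, with a median of 2549 against 2078 bases. Matches with 10 bases on either side are shown for both PIWI genes that have one, for spn-E and armi, and for BoYb (2 of its 3), which had 0 counts in pulldown 1. The motif is in capitals, as DNA letters of the mRNA strand, 5′ to 3′:
aub, chr2L:11000367-11000375, minus strand, coding: gcatcaatcaGTTCAAAGCtgttcaagat
AGO3, chr3L:23689587-23689595, plus strand, 3′ UTR: taaaaggcctGTTCAAAACactacaatta
spn-E, chr3R:15837590-15837598, plus strand, coding: tggccacgaaGTTCAAATCatccgaagtg
armi, chr3L:3463857-3463865, plus strand, coding: agaggtcccgGTTCTATGCcaaccaagtt
armi, chr3L:3465666-3465674, plus strand, coding: ccccttcctgGTTCAATCCccaagaggtc
BoYb, chr3L:22903039-22903047, plus strand, coding: agctttggaaGTTCAACACtacagttgcc
BoYb, chr3L:22903822-22903830, plus strand, coding: cacgaacataGTTCAATCCgatttgacag

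A match is of letters only, and modification at these positions was not measured. The transcripts of piwi, del, arx, nxf2, mael, squ, zuc, Nbr, moon and vret were among those without a match. The median log2 fold change of pulldown over input was -0.64 for the 19 members with a match and -0.80 for the 14 without. For all tested genes with and without one it was -0.13 and -0.03. The order differed between replicates. In replicate 1 the median log2 ratios with and without a match were -0.69 and -1.03 for members, and -0.25 and -0.34 for all tested genes. In replicate 3 they were -0.55 and -0.53 for members, and -0.21 and 0.03 for all tested genes. Genes with a match also had longer mRNAs, 3546 against 2135 bases in the members at the median. The motif of Pus7 in yeast and human cells, TNTAA or TNTAG, had a median density of 5.77 per kb in the members and 5.39 in all tested genes.

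Together the 34 genes took 0.103% of the counts in pulldown 1 (95% Wilson interval 0.0969 to 0.110), against 0.238% in input 1 (0.234 to 0.243). They took 0.264% in pulldown 3 (0.260 to 0.268), against 0.400% in input 3 (0.397 to 0.404). These intervals cover counting error only. The share was lower in the pulldown of each pair, but pulldown 3 lay above input 1, so the groups overlapped. Without the 10 genes with the most reads the shares were 0.154% in pulldown 1 and 0.276% in input 1, and 0.283% in pulldown 3 and 0.427% in input 3. The median member had 23.4 CPM in pulldown 1 and 50.4 CPM in input 1, and 71.1 CPM in pulldown 3 and 97.7 CPM in input 3.

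**Figure D1:**
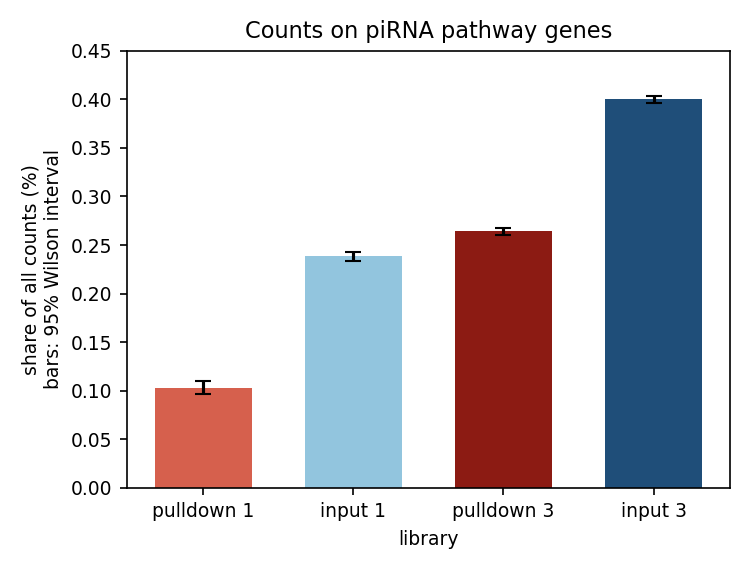
Share of all counts (percent, y axis) on the 34 piRNA pathway genes in each library (x axis), with 95% Wilson intervals as error bars. The pulldown lies below the input of the same number in both pairs, at 0.103% against 0.238% and at 0.264% against 0.400%.

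The replicates of a group differed widely among the members. Between replicates, fewer cells of a type and less RNA per cell cannot be told apart in whole ovaries, while a pulldown and its own input share a homogenate. On the scale normalised by trimmed mean of M-values (TMM), the inputs were at least 2-fold apart for 14 of 33 members, against 38.1% of all tested genes, and the pulldowns for 16 of 33, against 57.8%. The inputs were furthest apart for Nbr, the gene of a nuclease, which had 9.42 CPM in input 1 and 129 CPM in input 3, 13.7 times as much. egg, the gene of a histone methyltransferase, had 12.0 and 86.9 CPM in inputs 1 and 3. In contrast, arx was lower in input 3, with 37.8 CPM against 96.8 CPM in input 1. mael was nearly the same in both inputs, at 118 and 117 CPM. By mean input level per length, in CPM per kb of exon, the highest members were squ (108), boot (85.2), del (83.8), arx (75.4) and shu (64.5), with piwi next (63.5). The order depended on the replicate. In input 1 squ (133), arx (109) and del (93.6) were highest, whereas in input 3 piwi (101), boot (99.3) and squ (82.3) were, and arx was at 42.3. Among the PIWI genes, AGO3 was the highest in input 1 (41.4, against 26.3 for piwi and 14.9 for aub), while piwi was the highest in input 3 (101, against 63.1 for AGO3 and 55.2 for aub).

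The test between groups asked whether any of these mRNAs differed between pulldown and input. Without the mock pulldown it does not isolate the part of the antibody. In edgeR's quasi-likelihood test, 0 of 33 members were higher and 0 lower at an adjusted p under 0.05 and a change of at least 2-fold, as was true of 0% of the 7085 genes in either direction. The adjusted p was 0.9999 for every member, and 0 members had an unadjusted p under 0.05, against 2.06% of all tested genes. DESeq2 and edgeR's exact test also called 0 members. Log2 fold changes lay between -2.64 and 1.13, and 30 of the 33 were below 0, against 53.8% of all tested genes. The median of the 33 was -0.69 against -0.07 for all tested genes. With upper-quartile scaling 28 were below 0, since vret and mino were then at 0.054 and 0.0019. For none of the members did the difference pass the test against the spread between these libraries.

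The ratio of pulldown to input was then taken within the pair of each number, on log2 CPM with TMM-scaled library sizes and a prior count of 2. With 1 library per group in a pair these ratios have no test. In replicate 1 the median ratio was -0.85 on the log2 scale over the members and -0.31 over all tested genes. At least 2-fold lower were 16 of 33 members, against 35.3% of all tested genes, and at least 2-fold higher was 1 member, Panx, against 16.3%. In replicate 3 the medians were -0.55 and -0.06, 7 of 33 members were at least 2-fold lower, against 13.7%, and 0 at least 2-fold higher, against 7.99%. The 7 were piwi, qin, tud, zuc, Nbr, moon and nxf3. Only Nbr and nxf3 were at least 2-fold lower in both replicates, which is 2 of 33 against 6.41% of all tested genes. At least 2-fold higher in both were 0 members, against 1.61%, and 0 changed by 2-fold in opposite directions, against 6.15%. Across the 33 members, the ratios of the replicates had a Spearman's rho of 0.07, the same as over all tested genes, where the members share their libraries and are not independent.

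**Figure D2:**
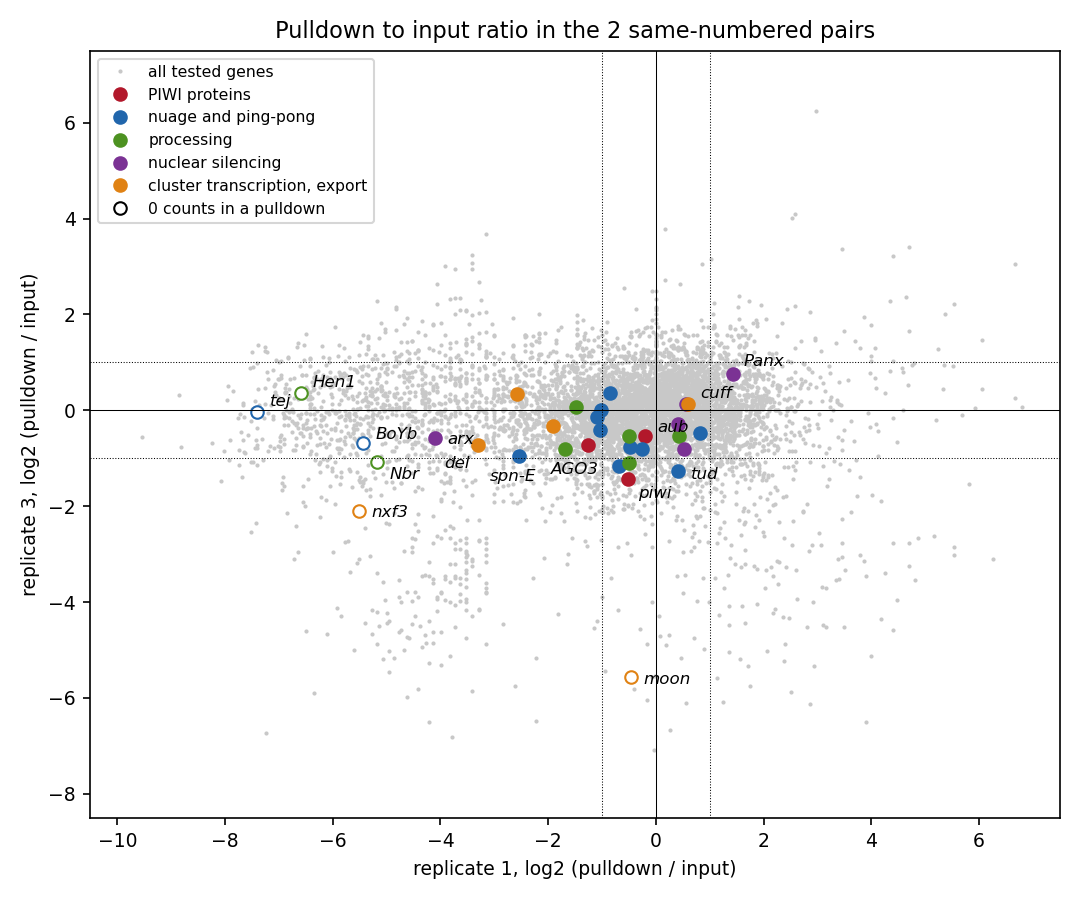
Log2 ratio of pulldown to input in replicate 1 (x axis) and replicate 3 (y axis) for all 7085 tested genes (grey) and the 33 members, coloured by role. Open circles are members with 0 counts in a pulldown, whose ratio depends on the prior count, and dotted lines mark 2-fold. Most members lie left of and below 0, and Panx is the only member past 2-fold to the right.

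To read the ratios at a given level, each member was set beside the 200 other tested genes nearest to it in mean input CPM. The members' ratio was below the median of those genes for 22 of 33 members in replicate 1 and 24 of 33 in replicate 3, with a median difference of -0.63 and -0.46 on the log2 scale. By role the difference in replicate 1 was -0.37 for the PIWI genes, -0.68 for nuage genes, -1.31 for processing genes, 0.65 for nuclear silencing genes and -2.06 for genes of cluster transcription and export. In replicate 3 the same medians were -0.54, -0.52, -0.38, -0.24 and -0.30. The order of the roles therefore differed between the replicates. In replicate 3 the ratio also fell with exon length, with a Spearman's rho of -0.35 over the 33 members and -0.42 over 6913 tested genes, and the members were longer, with a median of 2692 against 2186 bases of exon. Beside genes nearest in both input CPM and exon length, 22 members were below in replicate 1 (median difference -0.57) and 27 in replicate 3 (-0.37).

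**Figure D3:**
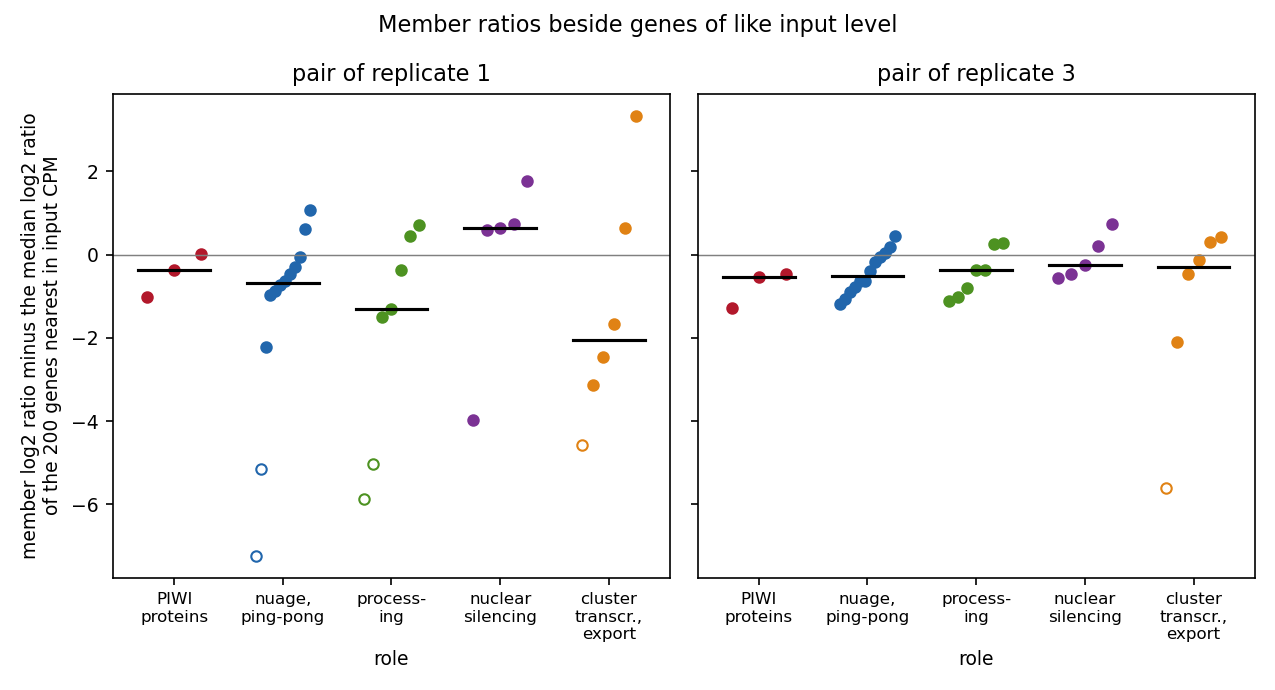
Log2 ratio of each member minus the median log2 ratio of the 200 genes nearest in input CPM (y axis), by role (x axis), for the pairs of replicates 1 and 3. Points are members, open where the pulldown of that pair had 0 counts, and black lines are medians per role. In replicate 1 the roles spread from -2.06 to 0.65, and in replicate 3 all 5 medians lie between -0.54 and -0.24.

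The 3 PIWI genes were lower in CPM in the pulldown of both pairs. On total counts, however, the median log2 ratio over all tested genes was itself -0.70 in replicate 1 and -0.12 in replicate 3. piwi (FBgn0004872, chromosome arm 2L, 10982205 to 10987420, minus strand), which encodes the nuclear PIWI protein, had 42.6 and 110 CPM in pulldowns 1 and 3, against 80.8 and 309 CPM in inputs 1 and 3. Each pulldown was below its own input, but pulldown 3 was above input 1. Its log2 fold change was -1.13 (SE 0.73), and the ratios were -0.52 in replicate 1 and -1.43 in replicate 3. aub (FBgn0000146, 2L, 10997819 to 11001476, minus strand) encodes the partner that takes up antisense piRNAs. It had 29.4 and 110 CPM in pulldowns 1 and 3, against 45.0 and 166 CPM in inputs 1 and 3. The groups overlapped, with a log2 fold change of -0.44 (SE 0.79). The ratios of aub were -0.21 in replicate 1 and -0.55 in replicate 3. AGO3 (FBgn0250816, 3L, 23554593 to 23689640, plus strand) encodes the partner that takes up sense piRNAs. It had 41.6 and 118 CPM in pulldowns 1 and 3, against 132 and 201 CPM in inputs 1 and 3. Here both pulldowns lay below both inputs, with a log2 fold change of -0.93 (SE 0.63). Of the exon bases of piwi, 6.21% overlap SCAR on the opposite strand, and the strand setting of the counting is not stated.

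Among the nuage and ping-pong genes, 12 of 12 tested members had log2 fold changes below 0, against 53.8% of all tested genes. They ran from -1.14 for spn-E to -0.01 for vret, with a median of -0.62. Within the pairs, 10 of 12 had a ratio below 0 in replicate 1 and 10 of 12 in replicate 3. Over all 7085 tested genes the numbers were 4127 and 3803. Most of the nuage and ping-pong genes encode Tudor proteins, which bind methylated arginines of PIWI proteins. squ, which encodes a nuage protein that binds Aubergine, had the highest mean input level per length of all members, at 108 CPM per kb of exon. It had 68.0 and 109 CPM in pulldowns 1 and 3, against 183 and 113 CPM in inputs 1 and 3, so that only pair 1 differed by much. Of its exon bases 16.3% overlap grp on the same strand, which makes its counts uncertain. tej, which encodes a Tudor protein that recruits the helicase Vasa, had 0 counts in pulldown 1 and 88.5 CPM in pulldown 3, against 45.0 and 94.4 CPM in inputs 1 and 3. Replicate 3 was thus nearly even, while in replicate 1 the CPM was at least 14.8-fold lower in the pulldown at the floor of 3 counts. Of the 200 tested genes nearest to tej in input CPM, 4% also had 0 counts in pulldown 1.

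BoYb, which encodes one of the Yb-related Tudor proteins, had 0 counts in pulldown 1 and 36.0 CPM in pulldown 3, against 11.3 and 60.1 CPM in inputs 1 and 3. At the floor it was at least 3.71-fold lower in pulldown 1 than in input 1, and 16.5% of the genes nearest in input CPM had 0 counts there. spn-E, a helicase gene, had 4 counts or 4.06 CPM in pulldown 1 and 78.3 CPM in pulldown 3, against 32.7 and 158 CPM in inputs 1 and 3. The level in pulldown 1 was close to the floor. krimp and mael, with squ, were the 3 of 12 tested nuage genes with both pulldowns below both inputs, against 20.0% of all tested genes. The untested fs(1)Yb was also of this kind. krimp had 47.7 and 73.4 CPM in pulldowns 1 and 3, against 130 and 101 CPM in inputs 1 and 3. The other tested nuage genes (qin, tapas, vret, SoYb, papi and tud) overlapped between the groups. Of these, tud and vret had TMM-scaled log2 ratios above 0 in replicate 1, 0.41 and 0.83, and below 0 in replicate 3, -1.27 and -0.48. In CPM tud was nearly even in pair 1, at 134 in pulldown 1 and 133 in input 1. papi went the other way, with -0.85 in replicate 1 and 0.37 in replicate 3. No member of this role was at least 2-fold higher in either pair.

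All 7 processing genes had log2 fold changes below 0, against 53.8% of all tested genes. They ran from -1.18 for Gasz, a scaffold gene of the mitochondrial surface, to -0.05 for mino, with a median of -0.82. Within the pairs, 6 of 7 had a ratio below 0 in replicate 1 and 5 of 7 in replicate 3. Both pulldowns lay below both inputs for 2 of 7, against 20.0% of all tested genes. zuc, the gene of the mitochondrial nuclease that makes the ends of phased piRNAs, had 8.12 and 9.78 CPM in pulldowns 1 and 3, against 15.3 and 22.2 CPM in inputs 1 and 3. The groups did not overlap for zuc, nor for Gasz, with 13.2 and 39.6 CPM in pulldowns 1 and 3, against 57.0 and 72.2 CPM in inputs 1 and 3. armi, a helicase gene, had 34.5 and 195 CPM in pulldowns 1 and 3, against 64.8 and 292 CPM in inputs 1 and 3. Its log2 ratios in replicates 1 and 3 were -0.50 and -0.53 on the TMM scale, and -0.90 and -0.58 on total counts. In the current annotation 99.6% of its exon bases are shared with CG46463 on the same strand, so reads of those genes cannot be told apart. shu, a co-chaperone gene of PIWI loading, was among the 5 members with the highest mean input level per length. It had 31.5 and 102 CPM in pulldowns 1 and 3, against 118 and 101 CPM in inputs 1 and 3, so it was lower in pair 1 and even in pair 3.

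The genes of both enzymes that finish the 3′ end of piRNAs had 0 counts in pulldown 1. Hen1, the methyltransferase gene, had 0 counts in pulldown 1 and 27.3 CPM in pulldown 3, against 25.7 and 21.9 CPM in inputs 1 and 3. It was at least 8.43-fold lower in pulldown 1 than in input 1 at the floor, and slightly higher in pulldown 3 than in input 3. Nbr (nibbler), the trimming nuclease gene, had 0 counts in pulldown 1 and 58.7 CPM in pulldown 3, against 9.42 and 129 CPM in inputs 1 and 3. It was at least 3.09-fold lower in pulldown 1 than in input 1, and in replicate 3 its log2 ratio was -1.08. Pulldown 3 was nonetheless above input 1, so the groups overlapped. Of the 200 genes nearest in input CPM, 25.5% had 0 counts in pulldown 1 for Hen1 and 4% for Nbr. Of the exon bases of Nbr, 11.5% overlap Pld3 on the opposite strand.

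The nuclear silencing genes held the member with the highest log2 fold change. Panx (FBgn0034617, 2R, 21310368 to 21312354, minus strand), the panoramix gene of the complex that silences transcription behind Piwi, had 66.0 and 74.9 CPM in pulldowns 1 and 3, against 32.0 and 45.8 CPM in inputs 1 and 3. Both pulldowns were above both inputs, and the log2 fold change was 1.13 (SE 0.75, edgeR adjusted p 0.9999). Over all members, both pulldowns lay above both inputs for 2 of the 33, Panx and cuff, against 6.21% of all tested genes. nxf2, whose protein binds Panoramix, had 25.4 and 124 CPM in pulldowns 1 and 3, against 22.6 and 117 CPM in inputs 1 and 3. Of its exon bases 21.6% overlap a TART-A transposon on the same strand, which makes its counts uncertain. The replicates of nxf2 lay far apart in level, but its TMM-scaled log2 ratios were both above 0, at 0.56 in replicate 1 and 0.13 in replicate 3. Its log2 fold change was 0.25 (SE 0.91). arx (FBgn0036826, 3L, 18900595 to 18901554, minus strand), the asterix gene of a zinc finger partner of Piwi, moved the other way. It had 4.06 and 24.3 CPM in pulldowns 1 and 3, against 96.8 and 37.8 CPM in inputs 1 and 3, with a log2 fold change of -2.29 (SE 1.08). The level in pulldown 1 rested on 4 counts. egg and wde, the gene of a cofactor of egg, were near 0, at -0.13 and -0.12, and their TMM-scaled log2 ratios were 0.42 and 0.51 in replicate 1 and -0.28 and -0.80 in replicate 3. In CPM egg was nearly even in pair 1, at 12.2 in pulldown 1 and 12.0 in input 1. The median of the 5 genes was -0.12.

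The genes of germline cluster transcription and export had the lowest median log2 fold change, -1.03 over 6 genes. Below 0 were 5 of the 6, against 53.8% of all tested genes. The median ratio of this role was the lowest in replicate 1, at -2.24. In replicate 3 it was -0.53, and the PIWI genes (-0.71) and nuage genes (-0.58) were lower. del (FBgn0086251, 2L, 21145137 to 21148546, minus strand), the deadlock gene of the complex that Rhino forms on clusters, had 23.4 and 142 CPM in pulldowns 1 and 3, against 308 and 244 CPM in inputs 1 and 3. The groups did not overlap, and the log2 fold change of -1.77 (SE 0.77) had the smallest unadjusted p among the members, 0.051 in edgeR (adjusted p 0.9999). rhi itself, the gene of a heterochromatin protein variant, was far lower in replicate 1, with a ratio of -2.57, and slightly higher in replicate 3, with 0.34. cuff, which encodes another partner in that complex, had the lowest mean input CPM of the tested members, with 7.11 and 6.94 CPM in pulldowns 1 and 3, against 6.12 and 6.54 CPM in inputs 1 and 3. The level in pulldown 1 rested on 7 counts, and the log2 fold change was 0.40 (SE 1.59). boot (bootlegger), of the export machinery, had 27.4 and 147 CPM in pulldowns 1 and 3, against 137 and 192 CPM in inputs 1 and 3, and the groups overlapped. Of its exon bases 20.1% overlap Nadk2 on the same strand.

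moon and nxf3 completed this role, and each had a pulldown with 0 counts. moon (moonshiner), the gene of a cluster-specific relative of a general transcription factor, had 13 counts or 13.2 CPM in pulldown 1 and 0 counts in pulldown 3, against 24.0 and 16.5 CPM in inputs 1 and 3. It was at least 34.8-fold lower in pulldown 3 than in input 3 at the floor, where 1.5% of the genes nearest in input CPM had 0 counts. nxf3, which encodes the export receptor of cluster transcripts, had 0 counts in pulldown 1 and 5.52 CPM in pulldown 3, against 12.0 and 25.8 CPM in inputs 1 and 3. It was at least 3.94-fold lower in pulldown 1 than in input 1 at the floor, where 31.5% of the genes nearest in input CPM had 0 counts, and had a log2 ratio of -2.10 in replicate 3. Its log2 fold change of -2.64 (SE 1.80) was the lowest of all members. With the replicate number as a block in the fit, moon was lower, at -3.57 against -3.35 for nxf3. nxf3 shares 59.9% of its exon bases with ssp2 on the same strand, so its counts are uncertain.

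**Figure D4:**
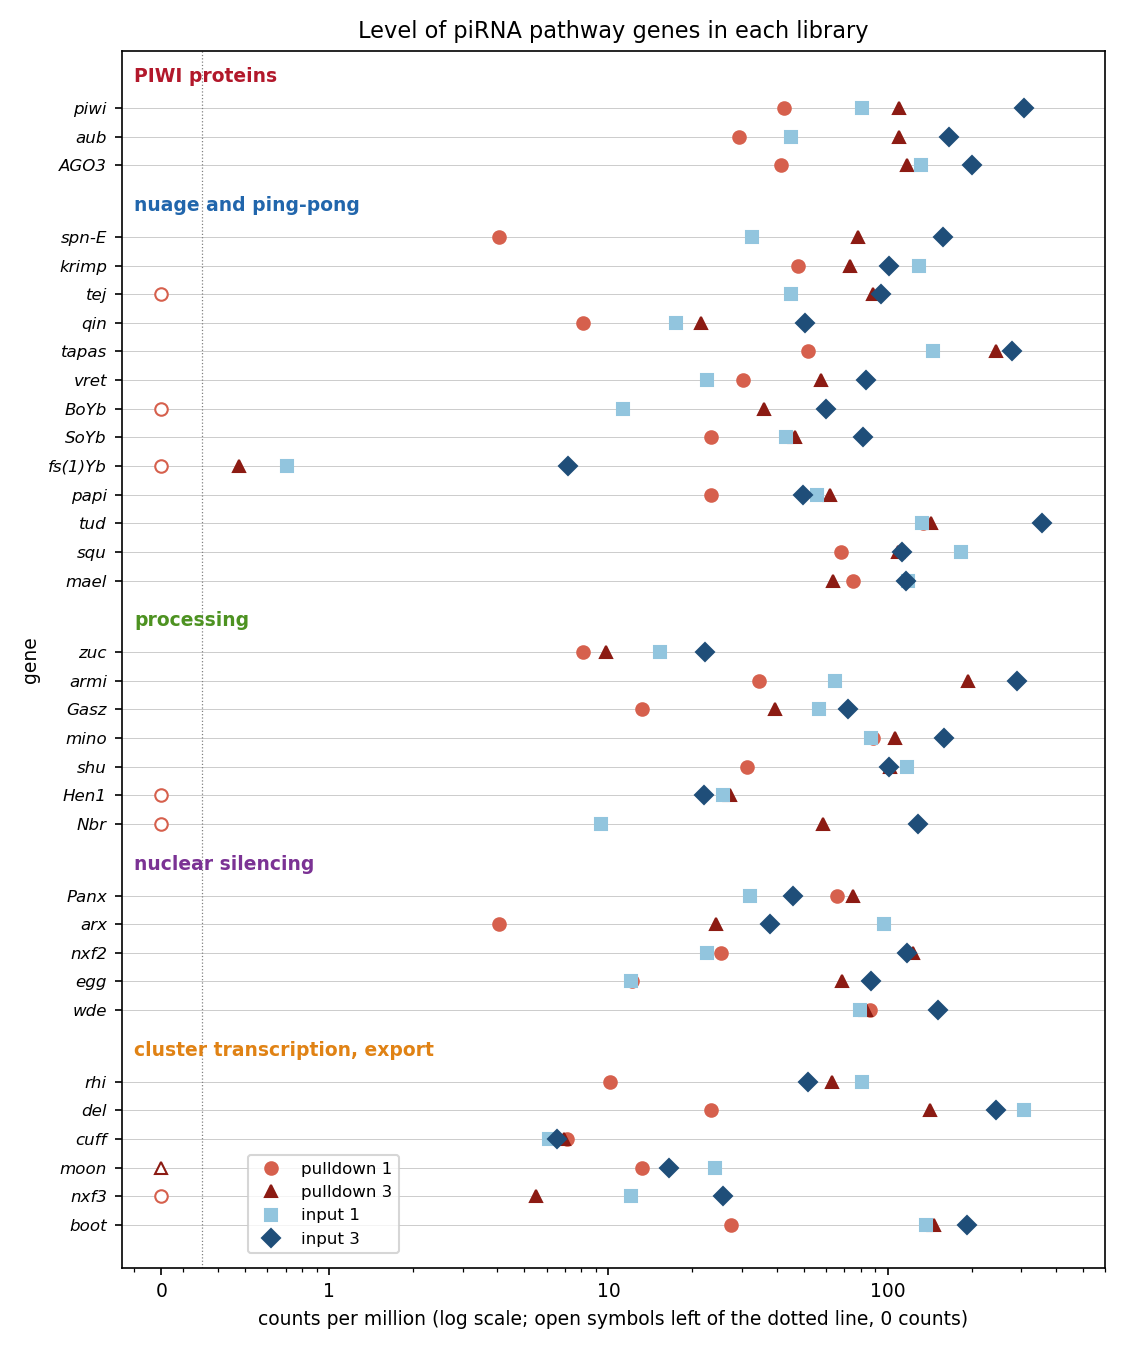
CPM (x axis, log scale) of the 34 piRNA pathway genes (rows, by role) in pulldowns 1 and 3 (circles and triangles) and inputs 1 and 3 (squares and diamonds). Open symbols left of the dotted line are libraries with 0 counts. Pulldown 1 is the lowest library for most genes, and for moon and mael it is pulldown 3. For vret, tud, mino, Panx, nxf2, egg, wde and cuff it is input 1.

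Over the members together, both pulldowns lay below both inputs in CPM for 10 of 33 (AGO3, krimp, squ, mael, zuc, Gasz, arx, del, moon and nxf3), against 20.0% of all tested genes. Pulldown 1 had 0 counts for 5 of the 33 tested members, against 17.0% of all tested genes, and pulldown 3 for 1, against 3.32%. Some calls appeared when a single pulldown was left out, with the lone pulldown assumed to vary like the inputs. Without pulldown 3, edgeR called 5 of 33 members lower, spn-E, tej, BoYb, Hen1 and Nbr, with adjusted p between 0.0124 and 0.0478, against 5.43% of all tested genes. All 5 had at most 4 counts in pulldown 1. Without pulldown 1 it called 1 member lower, moon (edgeR adjusted p 0.0116), against 0.381% of all tested genes. No member was called in both fits. Among the tested members, 14 share over 5% of their exon bases with another annotated gene or transposon, and the median log2 fold change of the other 19 was -0.78.

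Other genes tied to the pathway but outside the list were read for comparison, 16 of 17 of which were matched. edgeR called 0 of the 16 in either direction, 9 had log2 fold changes below 0, and their median was -0.21. The range ran from -0.80 for CtBP, a corepressor gene, to 0.77 for Hpr1, of the THO complex, which packages cluster transcripts for export. Nxt1, the cofactor gene of the Nxf proteins, had 11.2 and 67.1 CPM in pulldowns 1 and 3, against 38.4 and 28.0 CPM in inputs 1 and 3, so its pairs went in opposite directions. Of 10 genes of the miRNA and siRNA pathways, edgeR called 0, 7 were below 0 and the median was -0.17. Within the pairs, their median log2 ratio was -0.28 in replicate 1, against -0.85 for the members. In replicate 3 it was -0.53, close to the -0.55 of the members, and 9 of the 10 were below 0. For the 16 other genes tied to the pathway it was -0.43 in replicate 1 and 0.10 in replicate 3. AGO1, the miRNA effector gene, had 238 and 186 CPM in pulldowns 1 and 3, against 700.0 and 269 CPM in inputs 1 and 3. Whether the piRNA genes differ from these lists was not tested.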

How the data were processed

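The authors deposited raw read counts per FlyBase gene, 1 file per library. The submitters' processing notes name the dm6 assembly, HISAT2 2.1.0, featureCounts 1.4.6 and DESeq2 1.24.0, and the strand setting of the counting is not given in the sources used here. The NEXTflex kit is directional, and without that setting overlapping genes are uncertain. Identifiers were matched to the Ensembl annotation of the same assembly (16647 of 17023, or 97.8%), and RefSeq gave transcripts. nxf3 and boot were matched as synonyms or by case.

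Counts were fitted over all genes in R 4.3.3 with edgeR 4.0.16 (TMM, filterByExpr, group as the only term, quasi-likelihood test, two-sided, Benjamini-Hochberg over 7085 genes). Calls needed at least 2-fold and an adjusted p under 0.05. Fits were tested on simulated data, with less spread between libraries than in these data, where edgeR's common dispersion was 0.54. That check therefore does not show what the test could call at the spread of these libraries. Each input is a part of the homogenate of a pulldown by the study's methods, and the titles share numbers, which pair the libraries. Their deviations from the group means correlated at r = 0.41 over genes. Neither the blocked nor the unblocked fit called a member. The fit was repeated with scaling by total counts or upper quartiles, without the filter, with at least 10 counts required of each library, with the replicate number as a block, with the exact test, with DESeq2 1.42.0, and with other thresholds, a prior count of 0.5, 100 or 400 nearest genes, and leaving out replicates.

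The members, the lists and the naming rule were chosen with earlier results of these data known. Values in all libraries were given for the PIWI genes, the 5 members highest per length in the inputs, those at least 2-fold changed alike in both pairs, those with 0 counts in a pulldown, and the 3 highest and 3 lowest log2 fold changes. The remaining members were to be given by role, and values for some of them were added after their values were seen. The log2 ratios and log2 fold changes are relative to the TMM scale, while the fold differences at the floor are on total counts. On total counts the median over all tested genes is -0.70 in replicate 1 and -0.12 in replicate 3.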

Additional observations from a re-analysis of the deposited data

How the results depend on the processing

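edgeR or DESeq2 called 0 members under each of the 9 alternatives with all 4 libraries, the replicate block included. With 1 library left out, the number called ran from 0 to 5, the median log2 fold change of the members from -1.28 to -0.29, and the number of members below 0 from 20 to 29. With the replicate block the median was -0.72 and 28 members were below 0. Without replicate 1 or 3 as a pair it was -0.55 and -0.85. Of 220 log2 fold changes of the tested members recomputed with all libraries, 6 changed sign and none passed the threshold: vret with upper-quartile scaling (0.054), the block (0.15) and DESeq2 (0.047), mino with upper-quartile scaling (0.0019) and DESeq2 (0.0051), and egg with the block (0.046). With a replicate left out, 10 members changed sign: squ (-1.02 to 0.0077), shu (-1.49 to 0.072), Hen1 (-6.60 to 0.37), papi (-0.85 to 0.37) and rhi (-2.57 to 0.34) were above 0 without replicate 1, and vret (-0.48 to 0.83), mino (-0.53 to 0.42), egg (-0.28 to 0.42), wde (-0.80 to 0.51) and tud (-1.27 to 0.41) were above 0 without replicate 3.

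With 100 nearest genes the median difference in replicate 1 was -0.46. At 1.5-fold in place of 2-fold, 3 members were higher in replicate 1, and 15 were lower and 1 higher in replicate 3. Without the 10 genes with the most reads the shares were 0.154% in pulldown 1, 0.276% in input 1, 0.283% in pulldown 3 and 0.427% in input 3. Without the 14 members that share over 5% of their exon bases with another annotated gene or transposon they were 0.0553%, 0.144%, 0.142% and 0.207% in the same order, and the median log2 fold change of the other 19 tested members was -0.78. The 3-library fits, the counts of members below 0 and the match on exon length were added after seeing the data. The depth of pulldown 1 limits what it can show: 28 of the 34 members had a count there, with a median of 23 counts.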
